A study of Mus musculus with 6 samples.

Results

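Accessibility around 41 cell cycle genes was compared between RANKL-treated and control mouse small intestinal organoids. The members form a fixed list of cyclins, cyclin-dependent kinases and their inhibitors, replication and nucleotide synthesis genes, mitotic genes and the transcription factors that drive them. For each member, bulk ATAC-seq counts were summed over the 200-bp windows whose nearest protein-coding gene end, on the GRCm38 (mm10) build, belonged to the member and lay within 50 kb of the window's centre. This took in 93 of the 55056 windows of the series, 32 of them within 1 kb of a member's end and 61 between 1 and 50 kb away. A window was found for 37 members. The 4 without one were Mcm2, Mcm4, Mcm7 and Pcna, and the single window of Aurka had too few counts to be tested, which left 36 members among 12551 tested genes. Counts are given as CPM, scaled to the same total in every library, and the nearest gene of a window need not be the gene it regulates.

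ATAC-seq reads mark where the transposase Tn5 could insert adapters, so counts measure how open the DNA was. All 6 libraries came from a single organoid line, line26 wild type, Lgr5GFPDTR/+, derived from a female mouse. This allele places GFP and the diphtheria toxin receptor at Lgr5, the gene of a stem cell receptor. The RANKL group (n = 3) received 100 ng/ml RANKL for 6 days, after 3 days of 3 µM CHIR99021 and 1.5 mM valproic acid and 1 day in ENR medium. The control group (n = 3) grew in ENR medium, which holds EGF, Noggin and R-spondin 1, and was labelled as day 6. No label states outright whether the controls had CHIR99021, a GSK3 inhibitor that activates Wnt signalling, or valproic acid, a histone deacetylase inhibitor. Control libraries carry the name CVENRD6, in which CV may stand for these agents, but the labels do not explain the letters. Unless the controls had them too, these agents and RANKL cannot be told apart here. The replicates were 3 independent differentiation experiments, and in bulk samples more cells with an open site and a more open site per cell cannot be told apart. Totals were 322173 to 976881 counts per library, so that 3 counts were worth 3.07 to 9.31 CPM.

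The cell cycle is driven by cyclin-dependent kinases (CDKs). D cyclins with Cdk4 or Cdk6, then E cyclins with Cdk2, inactivate the retinoblastoma protein and free E2F factors, which switch on the genes of DNA replication. MCM proteins, loaded at origins by Cdc6 and Cdt1, license replication once per cycle, and Cdk1 with B cyclins starts mitosis. In the small intestine, dividing cells lie in the crypt, and enterocytes and microfold (M) cells, the cell type that RANKL induces, form as cells leave the cycle.

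Of the 41 members, 33 were found in a RefSeq table of promoters (GRCm38.p6, 250 bases before to 50 after a start), with 39 promoters. Of these promoters, 22 overlapped a window of their gene that lay within 1 kb of its end. 4 are shown: Birc5 because its start window had the largest change near any member's end, and E2f3, Mcm3 and Mcm5 because they carried the most counts near their ends among members whose promoter overlapped a window. The window of Birc5 overlapped 159 bases of its promoter, and those of the other genes lay wholly inside theirs. Capitals mark matches, on either strand, to CCAAT (bound by NF-Y), TTTGAA (the cell cycle homology element), CACGTG (bound by Myc and Max), TGANTCA (bound by AP-1) or, as E2F letters, to TTCCCGC, to TTCGCGC, to TTGCCGC and to TTGGCGC. They lie at chr11:117848987-117849286 (plus strand, Birc5), chr13:29986014-29986313 (minus strand, E2f3), chr1:20820263-20820562 (minus strand, Mcm3) and chr8:75109259-75109558 (plus strand, Mcm5), and are printed 5′ to 3′.
Birc5: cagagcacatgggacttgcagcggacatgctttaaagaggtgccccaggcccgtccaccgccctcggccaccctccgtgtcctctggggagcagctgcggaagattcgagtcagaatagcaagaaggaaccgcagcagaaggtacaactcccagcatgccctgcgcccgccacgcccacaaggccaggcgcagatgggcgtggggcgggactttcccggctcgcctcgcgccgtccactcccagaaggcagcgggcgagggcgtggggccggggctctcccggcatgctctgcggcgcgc
E2f3: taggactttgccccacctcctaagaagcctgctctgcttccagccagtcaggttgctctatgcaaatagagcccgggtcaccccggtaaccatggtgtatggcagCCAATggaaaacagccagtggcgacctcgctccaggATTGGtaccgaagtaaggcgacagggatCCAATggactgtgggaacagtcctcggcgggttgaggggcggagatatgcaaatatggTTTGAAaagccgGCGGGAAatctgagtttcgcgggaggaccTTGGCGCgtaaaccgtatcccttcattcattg
Mcm3: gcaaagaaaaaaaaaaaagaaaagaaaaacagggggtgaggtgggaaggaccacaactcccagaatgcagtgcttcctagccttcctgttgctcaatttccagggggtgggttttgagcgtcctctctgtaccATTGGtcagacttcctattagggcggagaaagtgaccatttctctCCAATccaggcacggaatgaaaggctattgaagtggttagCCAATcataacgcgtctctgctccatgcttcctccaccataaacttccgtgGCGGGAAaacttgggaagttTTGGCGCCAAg
Mcm5: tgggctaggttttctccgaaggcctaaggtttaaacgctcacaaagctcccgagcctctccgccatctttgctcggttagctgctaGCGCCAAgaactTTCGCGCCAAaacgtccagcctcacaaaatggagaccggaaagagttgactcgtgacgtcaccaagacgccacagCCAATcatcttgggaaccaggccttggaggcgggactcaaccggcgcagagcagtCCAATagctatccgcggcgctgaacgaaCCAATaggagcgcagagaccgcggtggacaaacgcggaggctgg

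The Birc5 stretch held none of these letters. The Mcm3 and Mcm5 stretches each held 3 matches to CCAAT and 3 to the E2F letters, and the E2f3 stretch held 3 and 2 with 1 to TTTGAA. In Mcm3 and in Mcm5, 2 of the 3 E2F matches overlapped each other on opposite strands. Over all 39 member promoters, an E2F match was found in 16 (41%), against 9.57% of the 32851 promoters in the table. A CCAAT match was found in 25 (64.1% against 37.4%), TTTGAA in 10 (25.6% against 17.9%) and CACGTG in 5 (12.8% against 7.15%). TGANTCA was found in 0 member promoters and in 7.81% of all. These shares are a description: the median GC content was 59.3% in member promoters and 52.7% in all, E2F and CCAAT matches shared bases in 2 member promoters, and a match is not a bound site.

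In their summed accessibility, 5 members were higher with RANKL, 1 was lower and 30 were not called (edgeR quasi-likelihood test, Benjamini-Hochberg adjustment over all 12551 genes, threshold 0.05). The higher ones were Stmn1, Birc5, Cdc6, Cdkn1a and Mcm5, and the lower one was Rrm2. Among all tested genes, 7.05% were called higher and 8.34% lower. The median log2 fold change of the 36 members was 0.11, against 0.01 over all genes, with 20 members above 0 and 16 below. All 3 RANKL libraries lay above all 3 controls for 8 members and below them for 4, against 14.5% and 16.1% of all tested genes. An unadjusted p under 0.05 was reached by 12 members, and by 28.1% of all tested genes. The split of calls depended on the scaling: with factors taken from all windows in place of the gene sums, all genes split into 1167 higher and 778 lower, against 885 and 1047, and the members into 7 higher and 1 lower. That scaling added E2f1 (log2 fold change 0.68, adjusted p 0.039) and Mki67 (0.37, adjusted p 0.042).

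**Figure D1:**
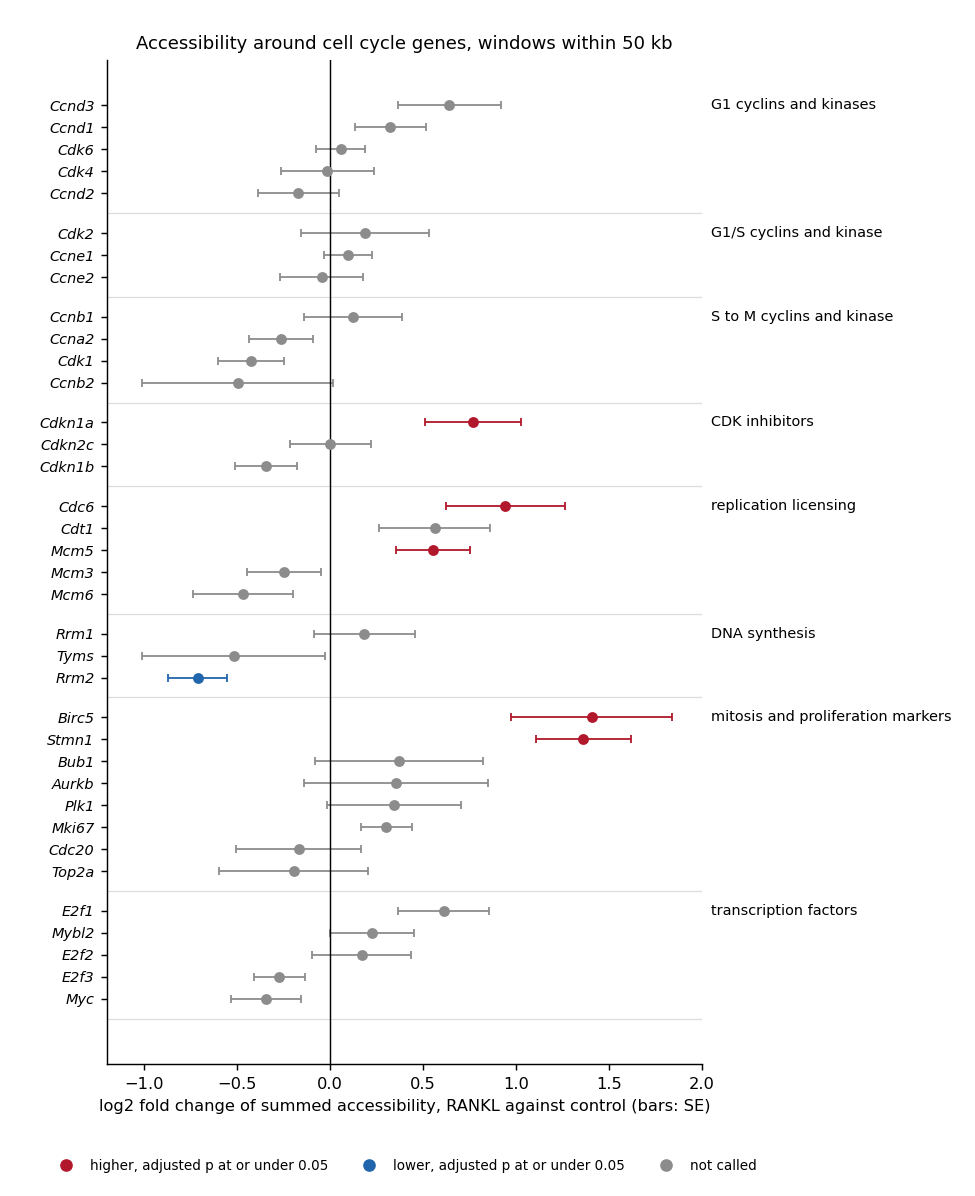
Log2 fold change of summed accessibility with RANKL against control (x axis) for the 36 tested members, grouped by role, with bars of 1 SE and n = 3 per group. Red marks the 5 members called higher and blue the 1 called lower. Fold changes run from -0.71 for Rrm2 to 1.41 for Birc5.

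The G1 cyclins and kinases start the cycle in response to growth signals. None of the 5 was called in its sum by edgeR or DESeq2 (1 had an unadjusted p under 0.05 in each), with log2 fold changes from -0.17 for Ccnd2 to 0.64 for Ccnd3 (adjusted p 0.101). Ccnd1 measured 75.3 ± 17.6 CPM (SD, n = 3) in controls and 92.8 ± 23.2 with RANKL, and Cdk4 measured 52.6 ± 3.97 and 49.8 ± 7.85, so that the groups overlapped for both. Cdk6, with 9 windows the member with the most, had 191, 178 and 174 CPM in the controls and 192, 156 and 210 with RANKL (values are in the order of the experiments throughout), a log2 fold change of 0.06 ± 0.13 (SE). This level sum held windows that moved in opposite directions. A window inside Cdk6, 21245 bp from its 3′ end (chr5:3509664-3509863), had 4.35, 1.00 and 0 CPM in controls and 18.5, 28.5 and 29.8 CPM with RANKL. It rested on 5 control counts against 43, a ratio of 13 with a 95% exact counting interval of 5.14 to 41.9, and rose with an adjusted p of 2.14e-06. Outside the start of Cdk6, 18789 bp away (chr5:3322116-3322315), accessibility fell from 54.6 ± 11.4 to 30.9 ± 17.4 CPM (log2 fold change -0.75 ± 0.27, adjusted p 0.031), although RANKL replicate 1, at 43.2 CPM, lay above control replicate 2, at 42.0. That call ended without RANKL replicate 2 (adjusted p 0.35), control replicate 1 (0.11) or control replicate 3 (0.093), and with DESeq2 (0.18). Counting all windows up to 200 kb away, the Cdk6 sum was called lower, at -0.34 (adjusted p 0.0024).

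The E cyclins and Cdk2 carry cells from G1 into S phase. By edgeR and DESeq2, 0 of the 3 were called or reached an unadjusted p under 0.05 in the sum, with log2 fold changes between -0.05 for Ccne2 and 0.19 for Cdk2. Ccne1 had 168, 207 and 176 CPM in controls and 204, 200 and 192 with RANKL, so that the groups overlapped. A single window 12981 bp outside the 3′ end of Ccne1 (chr7:38084904-38085103) had 47.8, 68.0 and 62.1 CPM in controls and 80.3, 96.6 and 89.5 with RANKL, and was called higher (log2 fold change 0.60 ± 0.19, adjusted p 0.013). In the 2 kb around the same centre the log2 fold change was -0.09 (adjusted p 0.76). The call also ended without RANKL replicate 2 (0.084), RANKL replicate 3 (0.061) or control replicate 1 (0.18), and with DESeq2 (0.12).

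Cyclin A2, the B cyclins and Cdk1 act from S phase to mitosis. Of these 4, 0 were called in the sum by edgeR or DESeq2 (1 had an unadjusted p under 0.05 in each) and 3 had negative log2 fold changes, with a median of -0.35. Cdk1, the mitotic kinase, had 124, 101 and 136 CPM in controls and 88.4, 81.0 and 91.3 with RANKL. All its RANKL libraries lay below all controls, and the log2 fold change of -0.43 ± 0.18 had an adjusted p of 0.086. One of its windows, 13261 bp outside the 3′ end (chr10:69321786-69321985), fell from 28.8 ± 4.74 to 10.6 ± 3.84 CPM (log2 fold change -1.30 ± 0.44, adjusted p 0.021). That call ended without RANKL replicate 1 (0.071), RANKL replicate 3 (0.060) or control replicate 3 (0.067), and with DESeq2 (0.098). Ccna2, with its single window, measured 120 ± 18.0 CPM in controls and 100 ± 14.8 with RANKL (adjusted p 0.32). Ccnb1 and Ccnb2 had log2 fold changes of 0.12 ± 0.26 and -0.50 ± 0.51.

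The CDK inhibitors hold the cycle back, and the 3 members differed from each other. Cdkn1a, which encodes p21 and responds to p53, had 33.1, 36.8 and 42.3 CPM in controls and 73.2, 59.7 and 58.8 with RANKL. Every RANKL library lay above every control, and the sum rose 1.70-fold (log2 fold change 0.77 ± 0.26, adjusted p 0.026). Its windows lay 9943 bp outside the start and 2729 bp inside it, and neither passed the test alone (adjusted p 0.19 and 0.052). The inside window (chr17:29093609-29093808) lay wholly within another listed promoter of Cdkn1a (chr17:29093519-29093818), so it was not away from all start sites. The call of the sum ended when RANKL replicate 1, 2 or 3 or control replicate 1 or 2 was left out (adjusted p 0.052 to 0.115), with DESeq2 (0.11) and in 2-kb counts (0.14). Cdkn1b, which encodes p27, had 120, 118 and 147 CPM in controls and 70.1, 98.1 and 113 with RANKL, below all controls but not called (log2 fold change -0.35 ± 0.17, adjusted p 0.16). Its window 5692 bp outside the start (chr6:134914610-134914809) had 19.6, 18.0 and 25.7 CPM in controls and 3.09, 6.58 and 7.46 with RANKL, and fell (log2 fold change -1.68 ± 0.58, adjusted p 0.023). In the 2 kb around that centre the log2 fold change was -0.08 (adjusted p 0.92), and the call also ended without RANKL replicate 1 (0.059), RANKL replicate 2 (0.051) or control replicate 3 (0.069) and with DESeq2 (0.089). Cdkn2c, which encodes p18, measured 64.2 ± 8.03 and 65.4 ± 10.8 CPM.

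Among the 8 licensing genes, 5 could be tested and 2, Cdc6 and Mcm5, were called higher. Cdc6, the loader of the MCM helicase, had 25.4, 27.6 and 17.8 CPM in controls and 61.0, 34.1 and 49.2 with RANKL, a log2 fold change of 0.94 ± 0.32 (adjusted p 0.027). All of it came from a window 6 bp outside the start (chr11:98907604-98907803), which as a single window rose 2.01-fold (adjusted p 0.0072). The call of the sum ended without RANKL replicate 1 (0.12), RANKL replicate 3 (0.13), control replicate 1 (0.068) or control replicate 3 (0.078) and with DESeq2 (0.10); that of the window ended without RANKL replicate 3 (0.066), with DESeq2 (0.051) and in 2-kb counts (0.065). Cdt1, the partner of Cdc6, had 32.0, 28.7 and 37.8 CPM in controls and 48.8, 46.9 and 46.8 with RANKL, groups that did not overlap, but was not called (log2 fold change 0.56 ± 0.30, adjusted p 0.20).

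Mcm5, a subunit of the helicase, had 67.3, 77.8 and 40.0 CPM in controls and 113, 81.0 and 97.3 with RANKL (log2 fold change 0.55 ± 0.20, adjusted p 0.043). The window at its start, inside the promoter shown above, measured 52.7 ± 18.0 CPM in controls and 53.6 ± 16.1 with RANKL and had a log2 fold change of -0.06 (adjusted p 0.89). The rise lay in a window 29260 bp outside its 3′ end (chr8:75157600-75157799), which had 2.17, 1.00 and 2.14 CPM in controls and 40.1, 48.3 and 34.8 with RANKL. This is 4 counts against 63, a ratio of 23.7 with a 95% exact counting interval of 8.82 to 89.7, and the log2 fold change was 4.44 ± 0.59 (adjusted p 1.01e-11). It was the largest change among the 60 tested member windows and was called under all 14 alternative settings, among them the one without a filter on low counts. Its controls alone would not have passed that filter, so in the main fit it was tested only through the RANKL libraries. Without it, counting windows within 10 kb, the Mcm5 sum had a log2 fold change of -0.19 (adjusted p 0.62). The call of the 50-kb sum also ended without RANKL replicate 1 (0.14), RANKL replicate 3 (0.15), control replicate 1 (0.095) or control replicate 3 (0.21), with DESeq2 (0.16) and in 2-kb counts (0.17). Mcm3 and Mcm6, the other helicase subunits with windows, measured 87.2 ± 15.1 and 51.9 ± 5.90 CPM in controls and 74.6 ± 3.02 and 38.4 ± 8.01 with RANKL. Neither was called, and the RANKL libraries of Mcm6 lay below all controls.

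The DNA synthesis genes make nucleotides or copy DNA. Rrm2, the regulated subunit of ribonucleotide reductase, had 181, 157 and 145 CPM in controls and 122, 102 and 86.5 with RANKL. All RANKL libraries lay below all controls, and the sum fell to 0.610 of the control level (log2 fold change -0.71 ± 0.16, adjusted p 0.00022). The largest part lay 20865 bp outside the 3′ end (chr12:24734912-24735111), where accessibility fell from 71.2 ± 2.78 to 40.8 ± 13.1 CPM (log2 fold change -0.87 ± 0.23, adjusted p 0.0020). With DESeq2 this window missed the threshold (0.052). The window 442 bp inside the start of Rrm2 measured 36.2 ± 6.83 and 33.7 ± 10.9 CPM (adjusted p 0.68), and with windows up to 10 kb the sum was not called (-0.31, adjusted p 0.58). Rrm1, the other subunit, and Tyms, thymidylate synthase, had log2 fold changes of 0.18 ± 0.27 and -0.52 ± 0.49.

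Of the 9 mitosis and proliferation genes, 8 were tested, and Stmn1 and Birc5 rose. Stmn1, which encodes the microtubule destabiliser stathmin, had 24.3, 37.9 and 24.5 CPM in controls and 104, 66.1 and 69.6 with RANKL. The groups lay well apart, and the log2 fold change was 1.36 ± 0.26 (adjusted p 7.47e-06); it was called under all 17 alternative settings. A window 8834 bp beyond its right-hand end (chr4:134482578-134482777) had 6.52, 9.0 and 2.14 CPM in controls and 46.3, 26.3 and 28.6 with RANKL, a log2 fold change of 2.26 ± 0.48 (adjusted p 6.59e-05). The window at an end of Stmn1, 48 bp inside it, measured 19.2 ± 3.89 CPM in controls and 33.5 ± 6.42 with RANKL, groups that did not overlap, and was not called (adjusted p 0.15).

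Birc5, which encodes the mitotic protein survivin, had 13.2, 14.3 and 8.90 CPM in controls and 39.6, 29.9 and 33.6 with RANKL. This was the largest change among the tested member sums, at 2.65-fold (log2 fold change 1.41 ± 0.43, adjusted p 0.013). Its controls alone would not have passed the filter on low counts, so it was tested only through the RANKL libraries. Without the filter edgeR also called it (adjusted p 0.015). Its only window was the one at its start, 10 bp outside the gene (chr11:117849128-117849327), which tested alone had a log2 fold change of 1.47 ± 0.40 (adjusted p 0.0028). The call of the sum ended without RANKL replicate 3 (0.074), and that of the window in 2-kb counts (0.057). Mki67, the standard proliferation marker, had 148, 158 and 154 CPM in controls and 223, 188 and 172 with RANKL, above all controls but not called (log2 fold change 0.30 ± 0.14, adjusted p 0.12). Top2a, Cdc20, Plk1, Bub1 and Aurkb, which act on chromosomes and the spindle, had sums of 14 to 33.0 CPM in controls and log2 fold changes between -0.20 and 0.37, and their groups overlapped.

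The 5 transcription factors that drive the cycle were not called in their sums by edgeR or DESeq2, with an unadjusted p under 0.05 for 2 by edgeR and 1 by DESeq2. E2f1, which activates replication genes, had 33.1, 47.1 and 48.9 CPM in controls and 51.8, 59.7 and 74.5 with RANKL, above all controls (log2 fold change 0.61 ± 0.25, adjusted p 0.070). Its only window lay 124 bp outside the start (chr2:154569917-154570116), so the sum and the window hold the same counts. Under the scaling and adjustment of single windows these counts rose 1.62-fold (adjusted p 0.017). That call ended with the experiment as a block (0.079), without RANKL replicate 3 (0.27) or control replicate 1 (0.16), with DESeq2 (0.15) and in 2-kb counts (0.38). E2f3, of the same activating class, had 185, 170 and 205 CPM in controls and 104, 151 and 177 with RANKL (adjusted p 0.17). A window inside E2f3, 34509 bp from its 3′ end (chr13:29940985-29941184), fell from 21.3 ± 2.43 to 7.06 ± 1.49 CPM (log2 fold change -1.61 ± 0.55, adjusted p 0.022). With the experiment as a block its adjusted p was 0.059, with DESeq2 0.10 and in 2-kb counts 0.15. Myc, the growth regulator downstream of Wnt signalling, measured 99.0 ± 20.5 and 80.0 ± 3.49 CPM in its sum (adjusted p 0.22). Counting windows up to 200 kb away, the Myc sum was called lower (-0.34, adjusted p 0.011). Its sum within 1 kb was 39.9, 49.1 and 37.4 CPM in controls and 20.4, 29.6 and 24.8 with RANKL, below all controls but not called (log2 fold change -0.76 ± 0.31, adjusted p 0.11). E2f2 and Mybl2 had log2 fold changes of 0.17 ± 0.27 and 0.23 ± 0.23.

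**Figure D2:**
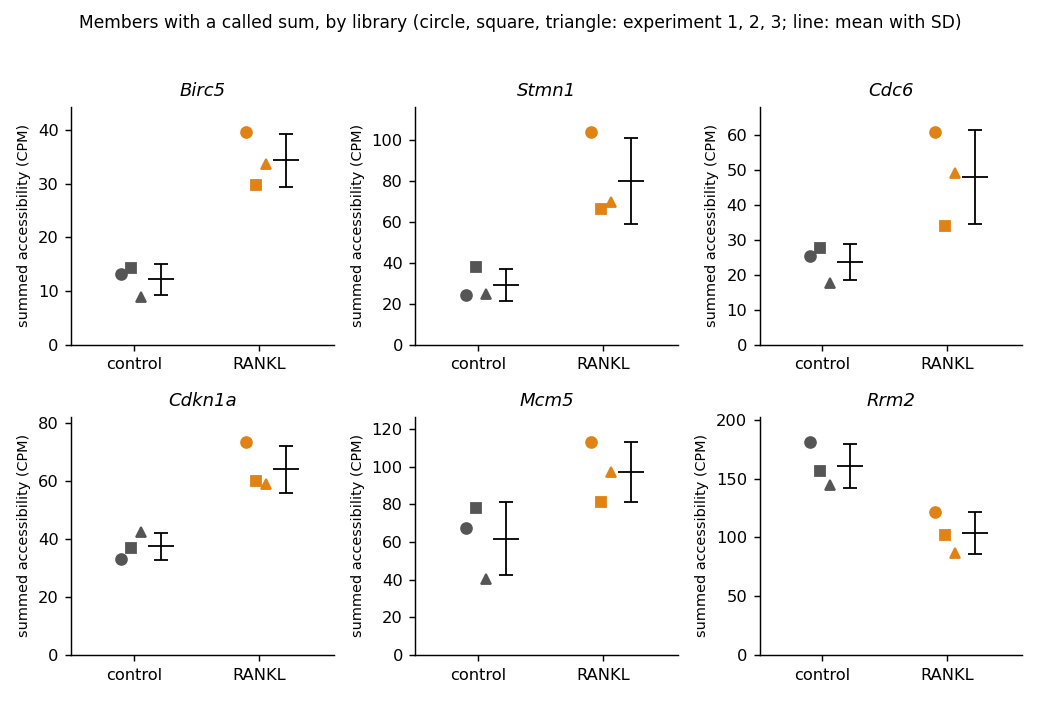
Summed accessibility (y axis, CPM, from 0) of the 6 members with a called sum in each library, with the marker shape giving the experiment and the bar the mean with SD (n = 3). For each of the 6, chosen because its sum was called, the RANKL libraries do not overlap the controls. Over all 12551 tested genes, 14.5% lay wholly above and 16.1% wholly below the controls. Stmn1 goes from 24.3 to 37.9 CPM in controls to 66.1 to 104 with RANKL.

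Splitting the windows at 1 kb separated sites near the outermost ends of a gene from sites farther away. The far part included windows inside genes, among them the Cdkn1a window that lay in a listed promoter. Within 1 kb, 31 members were tested and Birc5 alone was called, higher, by 1.33 ± 0.41 on the log2 scale (adjusted p 0.025); 2.64% of 8101 genes were called higher and 3.73% lower. Its call ended when any 1 library was left out (adjusted p 0.051 to 0.13). The near sum of Cdc6 missed the threshold (0.058). The median near log2 fold change of members was -0.10 (all genes 0.00), and it was 0.04 with factors of all windows, which moved the median of all genes by 0.14 and split them into 504 higher and 168 lower in place of 214 and 302 (327 and 181 with library totals).

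Between 1 and 50 kb, 15 members were tested: Mcm5, Stmn1, Cdkn1a and Mki67 were called higher and Rrm2 lower, against 9.64% of 7584 genes higher and 8.18% lower (611 and 832 genes with library totals, in place of 731 and 620). Mcm5 went from 7.58 ± 2.02 to 46.3 ± 6.31 CPM (log2 fold change 2.51 ± 0.43, adjusted p 1.25e-05) and Stmn1 from 8.85 ± 4.74 to 48.9 ± 16.8 CPM (2.27 ± 0.41, adjusted p 3.81e-05). Both far sums passed the filter on low counts only through the RANKL libraries. Without the filter edgeR also called both (adjusted p 1.21e-06 and 3.25e-06). The far sum of Mki67 had 108, 111 and 120 CPM in controls and 193, 168 and 138 with RANKL, so that no library overlapped (log2 fold change 0.52 ± 0.16, adjusted p 0.013). That call ended without RANKL replicate 1 (0.080), RANKL replicate 2 (0.063), control replicate 1 (0.060) or control replicate 2 (0.061), with DESeq2 (0.059) and in 2-kb counts (0.73). The far call of Cdkn1a (0.87 ± 0.26, adjusted p 0.013) ended without RANKL replicate 1 (0.054) or control replicate 1 (0.079), with DESeq2 (0.055) and in 2-kb counts (0.24), and the far call of Rrm2 (-0.77 ± 0.19, adjusted p 0.0020) ended without RANKL replicate 3 (0.060). In 2-kb counts the balance of far sums turned, with Mcm5 and Stmn1 higher and Ccne1, Cdk1, E2f3 and Rrm2 lower, beside 10.3% of 11560 genes higher and 11.7% lower.

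The difference between the far and near changes could be tested in 10 members. It passed for Mcm5, by 2.73 ± 0.48 on the log2 scale (adjusted p 6.46e-06), and was 1.67 ± 0.59 for Stmn1 (adjusted p 0.060) and 0.70 ± 0.32 for Mki67 (adjusted p 0.18). Among 3399 genes, 4.94% were called with a positive and 2.91% with a negative difference, that is 168 and 99 genes. Library totals, which moved the median difference of all genes by -0.17, gave 127 and 158.

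**Figure D3:**
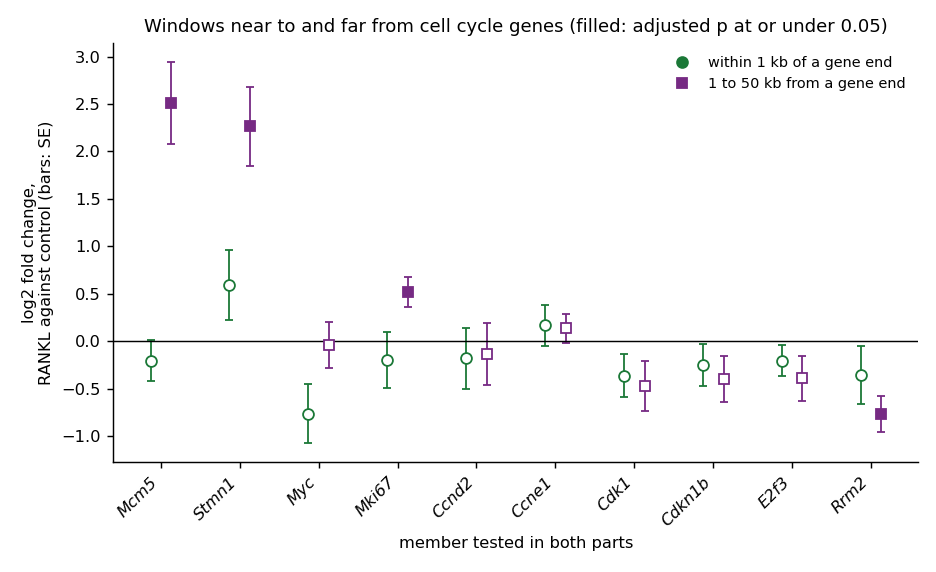
Log2 fold change with RANKL against control (y axis, bars of 1 SE, n = 3 per group) of summed windows within 1 kb (circles) and 1 to 50 kb (squares) for the 10 members tested in both, ordered by the difference. Filled symbols passed the test. Mcm5 and Stmn1 stand at 2.51 and 2.27 in their far windows, and no near sum of these 10 passed.

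Tested one by one, 60 of the 93 member windows passed the filter on low counts, and 7 were called higher and 5 lower, in a series where 10% of 21618 windows were higher and 10% lower. Within 1 kb, 3 of 31 windows rose (Birc5, Cdc6 and E2f1, each within 124 bp of the gene's outermost start) and 0 fell by edgeR or DESeq2, with an unadjusted p under 0.05 for 1 lower window by edgeR and 0 by DESeq2. Each of the 3 was the only window of its gene. As near sums, the same counts were called for Birc5 (adjusted p 0.025) but not for Cdc6 (0.058) or E2f1 (0.11). The windows of Cdc6 and E2f1 did not overlap the listed promoter of their gene. Of all 8178 such windows, 9.23% were higher and 2.92% lower. Farther out, 4 of 29 rose (Mcm5, Cdk6, Stmn1 and Ccne1) and 5 fell (Cdkn1b, E2f3, Cdk1, Rrm2 and Cdk6), against 9.73% and 11.4% of 9716. The called windows of Mcm5, Stmn1 and Birc5 and the one inside Cdk6 passed the filter only through the RANKL libraries. Those of Cdkn1b, E2f3 and Cdk1 passed it only through the controls. These windows could be tested only because 1 group was high. Windows of the same gene share their library totals but not their reads.

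**Figure D4:**
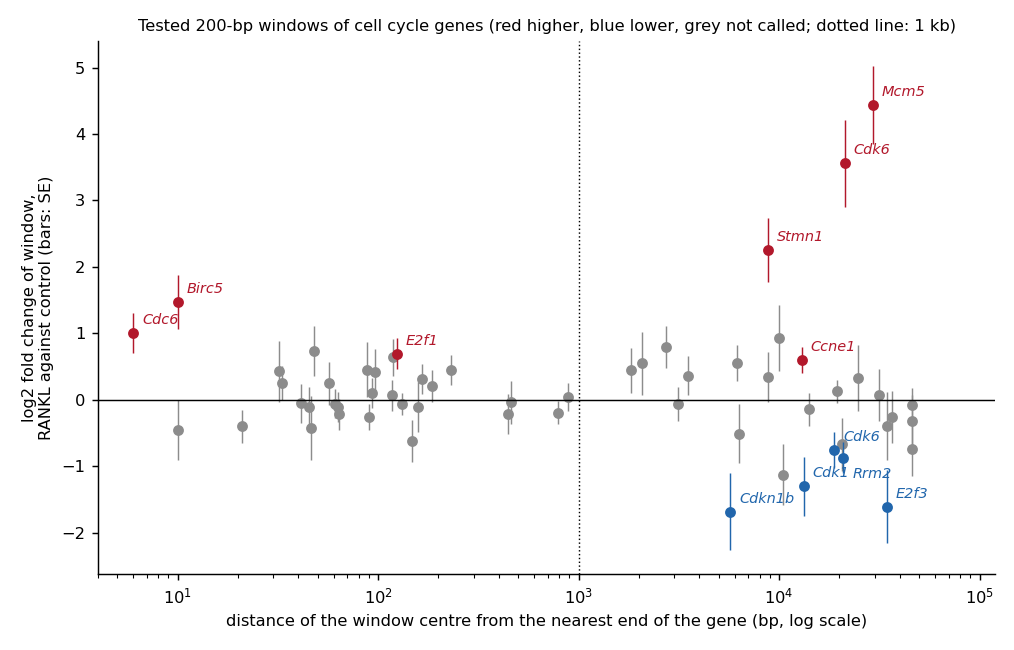
Log2 fold change of each of the 60 tested member windows (y axis, bars of 1 SE, n = 3 per group) against the distance of its centre from the nearest end of the gene (x axis, bp, log scale), with the dotted line at 1 kb. Windows called lower lie beyond 1 kb, and the windows of Mcm5 and Cdk6, at 4.44 and 3.56, have the largest rises. These windows of Mcm5 and Cdk6 passed the filter on low counts only through the RANKL libraries.

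Counts in 2 kb around the same centres, recovered from a second deposited table, gave another balance. Of the 36 members, 3 were higher (Stmn1, Birc5 and Cdc6) and 6 lower (Rrm2, Cdk1, Mcm6, Ccna2, Myc and Ccne1), where 9.32% of 15595 genes were higher and 12.4% lower. Stmn1 had a log2 fold change of 0.75 ± 0.16 in 2 kb against 1.36 in 200 bp, and Birc5 0.75 ± 0.28 against 1.41. Mcm6 fell in 2 kb (-0.71 ± 0.19, adjusted p 0.0032), as did Cdk1 (-0.51 ± 0.13, adjusted p 0.0018), Ccna2 (-0.42 ± 0.14, adjusted p 0.022) and Myc (-0.33 ± 0.13, adjusted p 0.045). Ccne1 was at -0.27 ± 0.10 (adjusted p 0.034) in 2 kb and at 0.10 in 200 bp. Within 1 kb, 0 member windows were higher and 5 lower in 2 kb by edgeR (4 and 9 at an unadjusted p under 0.05), at the starts or ends of Mcm3, Mcm6, Cdk1, Myc and Ccna2. Of all 10140 windows within 1 kb tested in 2 kb, 2.64% were higher and 13.8% lower. Loess offsets, which remove a trend with abundance, changed which 2-kb sums were called. With them 3 members were higher (Stmn1 and, newly, Mki67 and Ccnd1) and 3 lower (Rrm2, Mcm6 and Cdk1). Birc5, Cdc6, Ccna2, Myc and Ccne1 were no longer called. All genes then split into 1526 higher and 1416 lower in place of 1453 and 1939.

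**Figure D5:**
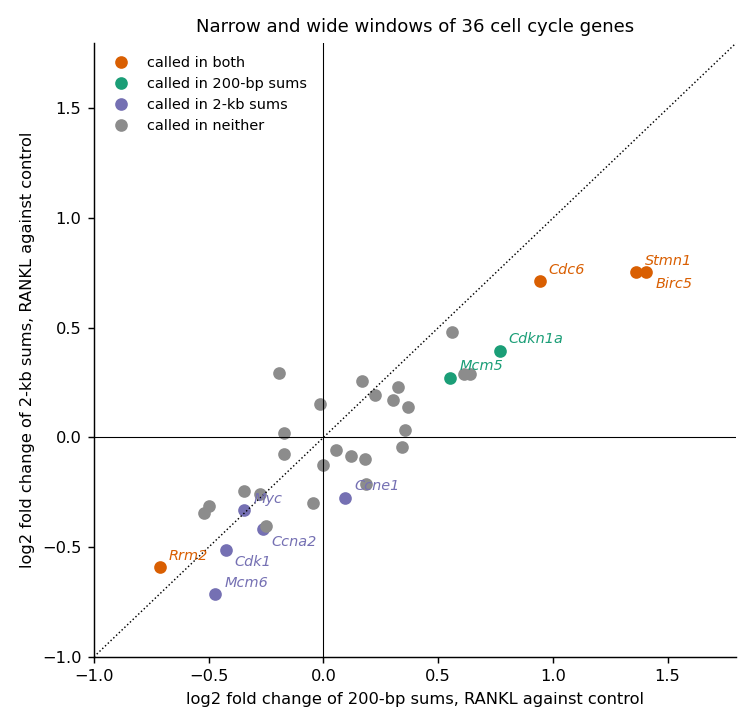
Log2 fold change with RANKL against control of the 36 tested members in 2-kb sums (y axis) against 200-bp sums (x axis), with the dotted line at equality and colour marking where the member was called. Stmn1, Birc5, Cdc6 and Rrm2 were called in both, and 5 members were called only as lower in 2-kb sums.

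At member windows, between 38.1% and 40.5% of the reads in 2 kb fell in the middle 200 bp in controls, and between 35.7% and 39.1% with RANKL. The difference of -1.88 percentage points had an exact two-sided permutation p of 0.2 (n = 3 per group), where 0.1 is the smallest possible. Over all windows the shares were 39.9% to 41% and 33.9% to 36.5%. The part of this difference in the 200-bp results was not tested.

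Some members' promoters lie beside another gene, and the window there was assigned to that neighbour. A window 926 bp from an end of Mcm7 and 836 bp outside the start of Ap4m1 (chr5:138171086-138171285) rose from 53.1 ± 6.01 to 86.4 ± 16.0 CPM (log2 fold change 0.61 ± 0.20, adjusted p 0.017), but was not called in 2-kb counts (0.23, adjusted p 0.33). The corresponding windows of Mcm4 (beside Prkdc), Pcna (beside Cds2) and Aurka (beside Cstf1) had log2 fold changes of -0.16, 0.24 and 0.00 and were not called (adjusted p 0.58, 0.45 and 0.99). In 2-kb counts the window beside Mcm4 was called lower (-0.57, adjusted p 0.0032). Mcm2 had no window within 1 kb of either end.

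Among 108 other genes of the cell cycle, from retinoblastoma proteins to origin recognition, checkpoint and kinetochore genes, 92 were tested by edgeR, 0 were higher and 1 was lower, with 13 and 8 at an unadjusted p under 0.05, beside the 7.05% and 8.34% of all genes called. Of 99 tested by DESeq2, 0 were called, with 5 and 3 at an unadjusted p under 0.05. Of 99 tested in 2-kb counts, 2 were higher and 11 lower, beside 9.32% and 12.4% of all genes. The lower one was Cenpf, a kinetochore protein, at 140 ± 7.32 CPM in controls and 102 ± 2.34 with RANKL (log2 fold change -0.46 ± 0.16, adjusted p 0.036, and 0.069 with the experiment as a block). The median log2 fold change of the 92 genes was 0.12, against 0.01 over all genes.

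Markers of the labelled tissue were open in all libraries. The 9 epithelial marker genes summed to 1072 to 1115 CPM in controls and 971 to 1147 with RANKL, and 1 of the 8 tested was called lower. Haematopoietic and endothelial marker genes had no window within 1 kb of an end. Farther windows summed to 55.3 to 73.4 CPM and 51.8 to 82.9 for the 3 of 5 haematopoietic genes that had windows, and to 114 to 167 CPM and 111 to 159 for 4 endothelial genes, of which 1 was called higher. The part of these cell types in the members' results was not tested. The 4 mesenchymal genes summed to 75.6 to 101 CPM and 57.9 to 110, with 4.4 to 13.6 and 8.76 to 12.7 CPM within 1 kb.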

How the data were processed

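Each ATAC-seq library was made from 50000 cells and read over 38 bp, per the labels' protocols. Treatment labels gave the RANKL and control groups, with 3 libraries in each. Whole-number counts of reads in 55056 windows, each 200 bp wide, were deposited by the authors, together with a deposited score for 2-kb windows centred on 55050 of them. Its values fit ln(count + 1) standardised within each library; inverting this gave 2-kb counts at most 0.0043 from whole numbers. The submitters' processing notes list the tools DESeq2 1.34.0, MACS2 2.2.7, Picard, BWA 0.7.17 and fastp 0.20.1, without their roles, and the mm10 (GRCm38) build. The choice of windows, any shift of read ends and any removal of duplicates are not stated in those notes or the labels. Narrow windows hold few counts (3.93% to 18.0% of windows were at 0 in a library), which limits the precision, and counting intervals cover counting error only.

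Each window was assigned by its centre to the nearest of the ends of 21887 protein-coding genes (RefSeq table of GRCm38.p6, with strand for 17492), and summed per gene within 50 kb, and separately up to and beyond 1 kb. Distances to a start are to this outermost gene end. For 60.5% of the genes with strand, that end was also a start in the promoter table. Tests of sums and single windows used edgeR 4.0.16 (R 4.3.3), a robust quasi-likelihood fit without covariates, with library totals over all windows, TMM factors within each table and the filterByExpr filter. P-values were adjusted by Benjamini-Hochberg over all features, at a threshold of 0.05. The far-minus-near difference was the part-by-treatment term with the library as a block. SE was taken as the size of the log2 fold change over the square root of F. CPM values use the factors of their own table, so near and far values add to the sum only approximately. The scripts were tested on simulated data. Alternatives were DESeq2 1.42.0, other scalings, filters, distances, 2-kb counts and leaving out each library; DESeq2's far-minus-near test had the same block.

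The labels' descriptions number the libraries of both groups as experiments 1 to 3, and the replicate block used these numbers. No label says that both groups of an experiment were grown or prepared together, and deviations from group means correlated at -0.045, 0.009 and -0.027 between same-numbered libraries over 12551 genes. Nothing in the labels says that the experiments used separate animals. All members are accounted for: values per library are given for those with a called sum, near sum, far sum or window and for some others, and the rest are given as group means, ranges or counts. Members, gene lists and tests were chosen with earlier results of these data known.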

Additional observations from a re-analysis of the deposited data

How the results depend on the processing

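The number of the 36 members called in the sum was 6 and stayed between 4 and 9 with the replicate block, other scalings, no filter, other distances and 2-kb counts. It was 3 with DESeq2 and 2 to 5 with 1 library left out, lowest without RANKL replicate 3. Within 1 kb, 1 member was called, and 0 with DESeq2, 2 with library totals, 5 in 2-kb counts, 3 with factors of all windows and 3 in 2-kb counts with loess offsets (the last 2 settings, and the leave-one-out of the central share, were chosen after seeing the data). It was 0 when any library was left out, where 28 to 31 members were tested. From 1 to 50 kb, 5 members were called, 3 with DESeq2, 3 in 2-kb counts with loess offsets and 3 to 5 without 1 library, lowest without RANKL replicate 1 or control replicate 1. Over all genes DESeq2 called 37 near sums higher and 44 lower of 9687, and 603 far sums higher and 333 lower of 11188. Single windows gave 12 calls, and 5 to 13 without 1 library, lowest without RANKL replicate 3. With DESeq2 there were 6 calls (6 higher, 0 lower) among 85, beside 2211 higher and 989 lower of all 43314 windows. In 2-kb counts there were 19 (6 higher, 13 lower), where 2.64% of all windows within 1 kb were higher and 13.8% lower. The far-minus-near difference was called in 1 member and in 2 in 2-kb counts (Mcm3 added). The causes were not tested.

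Of 25 called single results, 2 changed sign: the Mcm5 sum within 10 kb (-0.19), which leaves out its distant window, and the Ccne1 window in 2-kb counts (-0.088). DESeq2 ended 14 of the 25 calls, 2-kb counts 9 and loess offsets in 2-kb counts 12. No alternative scaling of 200-bp counts ended a call it was run on. The same counts as in the called windows of Cdc6 and E2f1 were not called as near sums (edgeR adjusted p 0.058 and 0.11). Near sums had their own scaling and adjustment. Among all genes, DESeq2 called 471 higher and 461 lower sums in place of 885 and 1047, 37 and 44 near sums and 2211 and 989 windows, and without RANKL replicate 3 edgeR called 543 and 685 sums. With the experiment number as a replicate block, a pairing that rests on the labels' numbers, 6 member sums and 10 windows were called. The block ended the E2f1 and E2f3 window calls (adjusted p 0.079 and 0.059) and no other member call. Among the other cell cycle genes it ended the call of Cenpf and added E2f7 (adjusted p 0.0499, against 0.056 without the block). The far-minus-near fit already held the library as a block, so no further pairing was fitted. The central share differed by -2.70 to -1.0 points without 1 library. Depth limits the low windows most: 60 of 93 member windows could be tested.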
